A study of Mus musculus with 12 samples.

Results

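RNA bound to ribosomes labelled at the endoplasmic reticulum (ER) of control cells held a different mix of mRNAs from the cell as a whole. The comparison of those 2 RNA pools is described here across all measured genes. It used 6 of the series' 12 libraries: 3 of RNA bound to ER-labelled ribosomes and 3 of whole-cell RNA, both from mouse embryonic stem cells given a scramble siRNA, a sequence meant to target no gene. The cells were of the E14Tg2a.4 line, grown in serum and leukemia inhibitory factor, and their large-subunit ribosomal protein Rpl31 was fused to a FLAG-TEV-AviTag sequence (Rpl31-FTA), which all 12 libraries share. ALIBi, a proximity biotinylation system, was directed to the ER, so that tagged ribosomes close to it received biotin and could be pulled down and released with TEV protease. The whole-cell library of each replicate came from an aliquot of the same lysate, set aside before the pulldown, so the libraries form 3 pairs, 1 per lysate. The other 6 libraries repeat both fractions in cells given siRNA against Lsg1, a GTPase of late 60S ribosomal subunit maturation, and are used below to share the estimate of the spread and for a side-by-side view. All cells derive from 1 line. The sources used here do not say whether the tagged line is 1 clone, and they describe neither the siRNA step nor a library of all ribosomes. The comparator is therefore total polyadenylated RNA, and a transcript that is poorly translated anywhere in the cell and one that is translated away from the ER cannot be told apart when both are low.

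Most proteins that enter the secretory pathway are made by ribosomes docked on the ER. A hydrophobic signal sequence or first membrane span, as it leaves the ribosome, is bound by the signal recognition particle (SRP), which brings the ribosome to its receptor and to the Sec61 channel. Cleavable signal peptides lie at the N-terminus of secreted, lumenal and many surface proteins, signal anchors stay in the membrane, and tail-anchored proteins carry their only span at the C-terminus and are inserted after translation has ended. In codons, the hydrophobic residues of such a stretch mostly have T at the second position.

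The start of the coding sequence is shown for 7 mRNAs, because it encodes the stretch by which SRP recognises its clients and because these mRNAs mark the range of the results. Each line gives the first 120 coding bases of the GENCODE M21 transcript on GRCm38, 5′ to 3′, with the most hydrophobic window of 9 codons in capitals. The first 3 belong to mRNAs that were high on ER-labelled ribosomes, Ktn1 to one that was low although it begins with a signal anchor, Lefty2 to one whose stretch fell under the threshold used for the classes below, and Eef1a1 and Npm1 to abundant mRNAs of cytosolic and nucleolar proteins.
Ephx1: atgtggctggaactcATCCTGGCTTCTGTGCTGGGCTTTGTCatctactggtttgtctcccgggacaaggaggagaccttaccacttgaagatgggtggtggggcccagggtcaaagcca
Sdc4: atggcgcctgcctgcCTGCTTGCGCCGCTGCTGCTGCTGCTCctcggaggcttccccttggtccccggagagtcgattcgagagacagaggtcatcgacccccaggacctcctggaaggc
Apoe: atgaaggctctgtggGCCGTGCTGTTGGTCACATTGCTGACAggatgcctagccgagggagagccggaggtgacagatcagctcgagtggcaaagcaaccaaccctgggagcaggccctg
Ktn1: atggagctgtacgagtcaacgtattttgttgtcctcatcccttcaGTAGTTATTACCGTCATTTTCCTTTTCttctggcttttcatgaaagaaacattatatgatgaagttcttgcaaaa
Lefty2: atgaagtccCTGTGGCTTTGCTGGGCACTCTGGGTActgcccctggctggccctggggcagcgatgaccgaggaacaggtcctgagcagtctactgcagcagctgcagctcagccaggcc
Eef1a1: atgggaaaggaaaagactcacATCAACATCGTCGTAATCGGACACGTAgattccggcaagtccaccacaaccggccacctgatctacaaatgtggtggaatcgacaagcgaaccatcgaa
Npm1: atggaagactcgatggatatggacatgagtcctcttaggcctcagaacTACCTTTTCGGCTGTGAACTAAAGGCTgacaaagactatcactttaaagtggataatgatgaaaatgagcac
All 7 stretches are exonic and coding. They lie at chr1:181001862-181001981 (minus strand) for Ephx1, chr2:164431269-164443164 (minus strand, across 2 coding exons) for Sdc4 and chr7:19697571-19698230 (minus strand, 2 coding exons) for Apoe. The others lie at chr14:47663787-47663906 (plus strand) for Ktn1, chr1:180893184-180893303 (plus strand) for Lefty2, chr9:78480535-78480654 (minus strand) for Eef1a1 and chr11:33161566-33162979 (minus strand, 2 coding exons) for Npm1. The mean Kyte-Doolittle hydropathy of the capitalised window, a scale on which higher is more hydrophobic, was 2.66 in Ephx1, 2.98 in Sdc4, 2.67 in Apoe and 3.37 in Ktn1. It was 1.91 in Lefty2, 2.11 in Eef1a1 and 0.622 in Npm1. T stood at the second position of 6 of the 9 window codons in Ephx1, 7 of 9 in Sdc4, 6 of 9 in Apoe and 8 of 9 in Ktn1, against 4 of 9 in Lefty2 and 3 of 9 in Npm1. Eef1a1, an elongation factor that is not inserted into membranes, also had 6 of 9, so the window alone does not separate the mRNAs that were high from those that were not.

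Reads counted in genes numbered 38092178 to 48297293 per library, more than the labels' target of read pairs. It is not known whether more pairs were sequenced or each end of a pair was counted. Along the first principal component, which took 73.5% of the variance over these 6 libraries, the fractions lay apart. ER-bound replicate 3 stood apart in 1 transcript, ENSMUSG00000119584, which took 18469 CPM (read counts scaled to a common library size, written CPM throughout) there against 1115 to 4143 CPM in the other 5 libraries. Lsg1 mRNA stood at 142.5, 149 and 151 CPM on ER-labelled ribosomes and at 136, 144 and 149 CPM in whole-cell RNA (log2 fold 0.04, SE 0.10, edgeR adjusted p = 0.733), so the fractions did not differ measurably in the gene that the series targets in its other cells. The 8 embryonic stem cell markers summed to 8081 to 8741 CPM on ER-labelled ribosomes and 6688 to 6830 CPM in whole-cell RNA. Of these 8, 7 were higher and 1 lower. The lower one was Esrrb, at 524, 535 and 515 CPM against 643, 633 and 619 CPM (log2 fold -0.27). The 13 markers of primitive endoderm summed to 20.2 to 20.8 and 18.3 to 18.8 CPM. The wider list of that lineage adds Sparc, Lama1 and the basement membrane collagens, of which Sparc stood at 402 CPM against 186 CPM and Lama1 at 22.0 CPM against 43.1 CPM. The 15 fibroblast or feeder markers, several of them secreted or surface proteins, summed to 140.3 to 153 CPM and 98.3 to 105 CPM in the same order, 1 of them had no read, and 5 of the 11 tested were higher and 2 lower. The 14 markers of primed and early lineages summed to 64.4 to 65.6 CPM and 65.2 to 68.6 CPM, without Dnmt3b, which the wider list holds at 253 CPM against 382 CPM.

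In all, 17702 genes passed the filter on low counts and were tested with edgeR's quasi-likelihood test, and 10422 of them (58.9%) differed between the fractions at an adjusted p under 0.05. Of these, 5279 (29.8% of tested genes) were higher on ER-labelled ribosomes and 5143 (29.1%) lower. A fold of at least 2 was reached by 692 genes above (3.91%) and 568 below (3.21%). Most differences were small: the middle 50% of genes lay between log2 folds of -0.25 and 0.33 around a median of 0.03, and the 5th and 95th percentiles were -0.83 and 0.95. These folds are shares of one pool over shares of another, and with library totals in place of TMM scaling 6438 genes were higher and 4144 lower (60.8% of calls higher, against 50.7%), with a median over all genes of 0.11. With a filter of 2 CPM in at least 3 libraries, 385 genes were at least 2-fold higher and 307 lower.

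The mRNAs furthest above whole-cell RNA encode secreted, surface and ER proteins. Serpine2, a secreted inhibitor of serine proteases, stood at 45.1, 43.7 and 49.6 CPM on ER-labelled ribosomes and at 10.4, 9.93 and 10.8 CPM in whole-cell RNA (log2 fold 2.15, SE 0.06). Ephx1, the ER-membrane epoxide hydrolase of drug metabolism, stood at 25.9, 27.7 and 29.7 CPM against 8.85, 7.14 and 7.70 CPM (log2 fold 1.82). In both, the lowest ER-bound library lay far above the highest whole-cell one. Sdc4, a heparan sulfate-bearing syndecan of the cell surface, stood at 98.7, 95.1 and 102 CPM against 36.4, 32.9 and 30.7 CPM (log2 fold 1.57, SE 0.06). Apoe, a secreted lipid carrier, reached 1465, 1292 and 1243 CPM against 492, 472 and 462 CPM (log2 fold 1.49, SE 0.06), the highest level among the 15 largest rises. Cd81, a tetraspanin with a membrane span near its start, was the lowest of these 15 in fold and among the tightest in replicate, with 249.6, 246 and 252 CPM against 97.0, 95.5 and 99.6 CPM (log2 fold 1.36). The set also held the membrane protein Perp (log2 fold 1.73), the secreted glutathione peroxidase Gpx3 (1.53) and the TGF-beta co-receptor endoglin, Eng (1.52). Plet1, a surface protein of early epithelia, was at 1.49, the growth factor precursor progranulin, Grn, at 1.47, the thyrotropin-releasing hormone precursor Trh at 1.37, the transporter-like Pqlc3 at 1.37 and the calcium-binding Golgi protein Nucb1 at 1.36. The largest fold among genes with at least 20 CPM and 1 direction in all pairs belonged to Gm10320, a predicted gene without an established role, at 27.6, 32.8 and 26.5 CPM against 4.57, 3.42 and 2.24 CPM (log2 fold 3.11, SE 0.20). No library of one fraction overlapped the other for any of these genes, and the largest edgeR adjusted p among them was 1.9e-10. They had been picked by the threshold, the size of the fold and 1 direction in all pairs. Over all tested genes, the ER-bound libraries lay all above the whole-cell ones in 32.6% and all below in 31.4%.

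**Figure D1:**
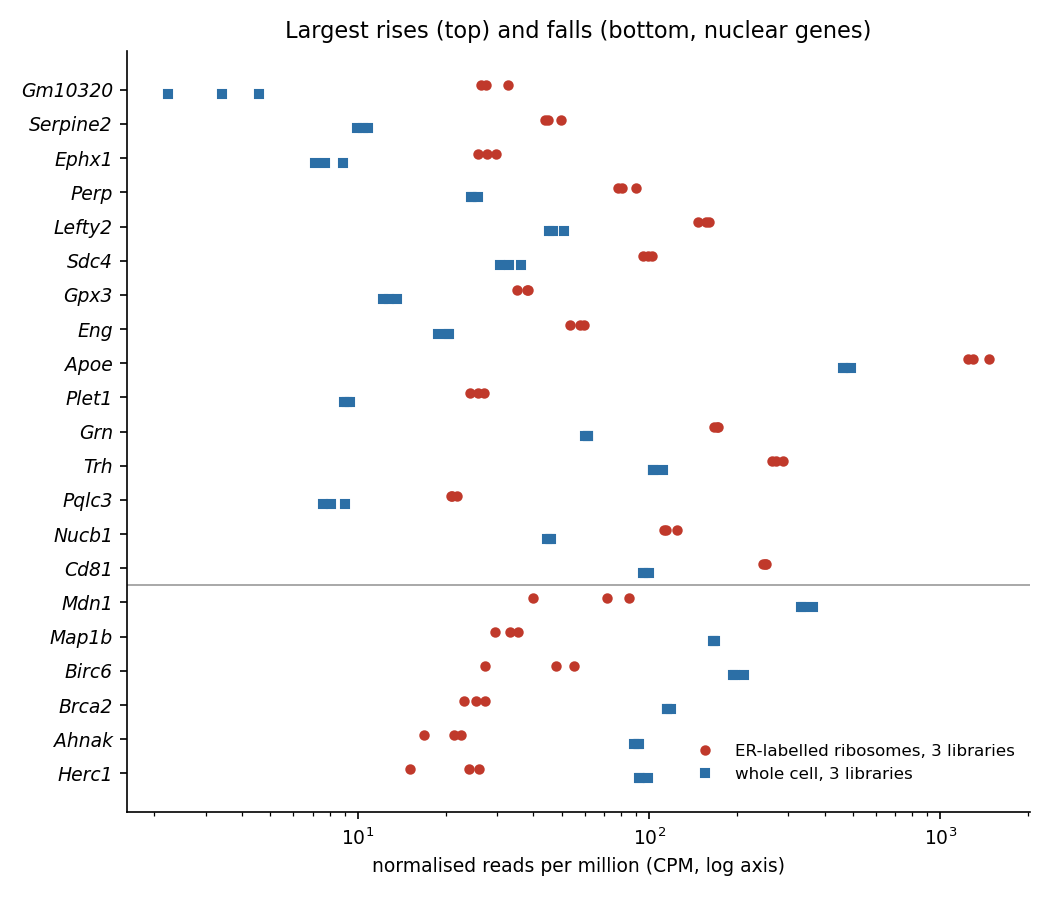
Normalised read counts (CPM, log axis) of the genes with the largest rises (above the line) and of the nuclear genes with the largest falls (below it); red circles are the 3 libraries of ER-labelled ribosomes and blue squares the 3 whole-cell libraries. The circles and squares of these genes, picked by fold and 1 direction in all pairs, never overlap. In Mdn1, Birc6 and Herc1 1 red circle, replicate 1, lies well to the left of the others.

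Among nuclear genes the largest falls belonged to mRNAs of very large soluble proteins. Mdn1, the giant AAA ATPase of 60S subunit assembly, stood at 40.1, 71.7 and 85.1 CPM on ER-labelled ribosomes and at 332, 337 and 366 CPM in whole-cell RNA (log2 fold -2.40, SE 0.16). Map1b, a microtubule-associated protein, stood at 29.6, 33.2 and 35.4 CPM against 165, 166 and 169 CPM (log2 fold -2.35), and Brca2, the homologous recombination mediator, at 23.1, 25.5 and 27.3 CPM against 115, 115 and 119 CPM (log2 fold -2.20). By the group means these 3 mRNAs stood on ER-labelled ribosomes at 19.02%, 19.6% and 21.8% of their whole-cell level. With the offset for trends with GC content and transcript length, Mdn1 stood at -1.72. The ubiquitin ligases Birc6 and Herc1 stood at log2 folds of -2.21 and -2.13, and the scaffold Ahnak at -2.17. ER-bound replicate 1 was the lowest of its group in all 6 genes, as with 27.2 CPM against 47.7 and 55.1 CPM for Birc6. The other 9 of the 15 largest falls were transcripts of the mitochondrial chromosome, described with the organelles below.

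Gene by gene, the mRNAs that were most abundant on ER-labelled ribosomes were those that are abundant in the cell. Eef1a1, by reads per kilobase the leading kind of mRNA there, stood at 12294, 12072 and 11794 CPM against 11746, 11939 and 12317 CPM in whole-cell RNA (log2 fold 0.01, SE 0.02, edgeR adjusted p = 0.84), and the groups overlapped. Npm1, the nucleolar histone chaperone, stood at 4158, 4101 and 4089 CPM against 4325, 4377 and 4326 CPM (log2 fold -0.08, SE 0.02), a small difference without overlap that reads as 0.00074 with library totals. The pool pulled down with ER-labelled ribosomes therefore still held large amounts of mRNAs of cytosolic and nuclear proteins. None of the 12 libraries is a pulldown without ER labelling. How much of this RNA was on ribosomes at the ER, and how much came down otherwise, cannot be told apart.

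Genes were then sorted by the protein they encode. A protein was scored as having an N-terminal stretch when a window of 9 residues within the first 40 had a mean hydropathy of at least 2.2, and a hydrophobic segment, the span-like unit, when a window of 19 residues reached 1.6. Genes with any stretch or segment took 26.6%, 26.9% and 26.5% of reads on ER-labelled ribosomes and 23.8%, 23.8% and 23.9% in whole-cell RNA, a gain of 2.86 percentage points (26.7% ± 0.179 against 23.8% ± 0.0538, SD, n = 3 and 3; exact permutation test, two-sided, p = 0.10, the smallest that 3 against 3 libraries allow when they are taken as unpaired, while 3 pairs allow no p below 0.25). Proteins with an N-terminal stretch and 1 segment, the layout of a signal peptide with a membrane anchor, gained most in proportion, at 3.40%, 3.32% and 3.25% against 2.15%, 2.13% and 2.13%, a ratio of 1.56. Those with an N-terminal stretch and nothing further took 7.49%, 7.24% and 7.04% against 5.56%, 5.53% and 5.54%. By the score this class also held abundant cytosolic chaperones: Hsp90ab1, at 5681 CPM against 5379 CPM on average, and Hsp90aa1, at 3944 CPM against 5372 CPM. Proteins with 4 or more segments took 3.35% against 2.77% on average, and those with 1 internal segment took less on ER-labelled ribosomes, 8.17% against 9.03%. Genes with no stretch still gave 70.8% of reads on ER-labelled ribosomes, against 72.0% in whole-cell RNA. These totals include mitochondrially encoded genes, at 0.0281% on ER-labelled ribosomes and 2.08% in whole-cell RNA, and transcripts without a matched protein. Over reads of genes with a matched protein only, the class with no stretch took 72.6% against 75.1%. On that base, genes with any stretch or segment took 27.4% against 24.9%. In each of these classes the 3 libraries of one fraction lay apart from those of the other, again at the smallest p of 0.10.

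**Figure D2:**
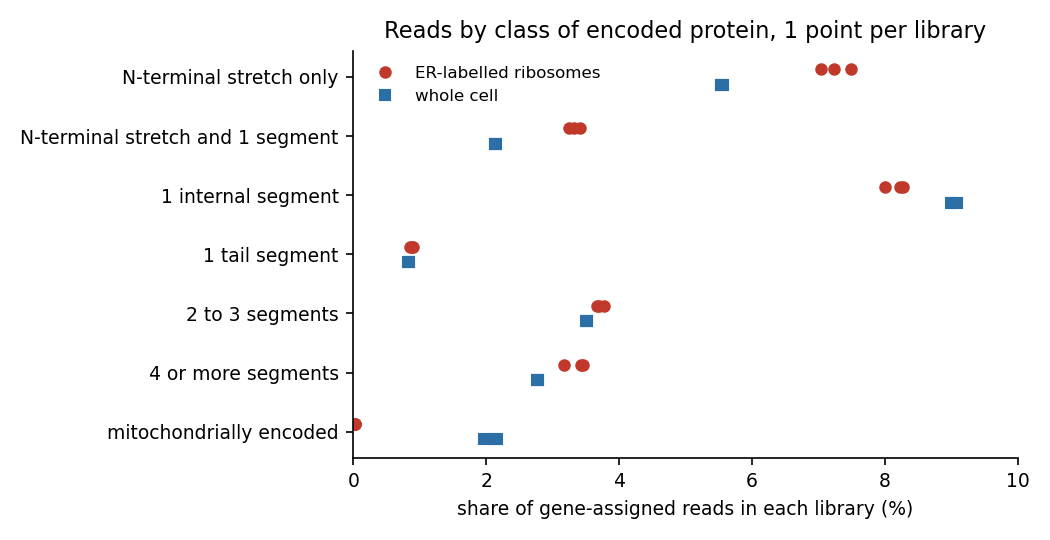
Percent of gene-assigned reads per library taken by each class of encoded protein; red circles are the 3 libraries of ER-labelled ribosomes and blue squares the 3 whole-cell libraries. The circles lie to the right of the squares for the classes with an N-terminal stretch and to the left of them for 1 internal segment and for mitochondrially encoded genes, where they are close to 0.

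By gene, 2953 of 5696 tested genes with any stretch or segment were higher on ER-labelled ribosomes (51.8%, against 29.8% of all tested genes) and 1098 lower (19.3%, against 29.1%), with a median log2 fold of 0.32. Of 8909 genes with none, 1998 were higher and 3510 lower, with a median of -0.06. The median was 0.55 for an N-terminal stretch with 1 segment (574 higher and 43 lower of 840), 0.48 for an N-terminal stretch only (848 and 145 of 1382), 0.39 for 4 or more segments (589 and 81 of 1012) and 0.37 for 2 to 3 segments (464 and 186 of 871). A single segment within the last 50 residues, the tail-anchored layout, had a median of 0.08 (72 and 54 of 193), close to that of all genes. A single segment elsewhere had a median of -0.07 (406 and 589 of 1398). Of the 27 tested proteins that end in a KDEL-type signal, which returns escaped ER residents from the Golgi, 25 were higher and 0 lower, with a median of 0.85. Each lysate gave similar values. The medians of the 3 pairs were 0.47, 0.46 and 0.46 for an N-terminal stretch only, 0.55, 0.54 and 0.56 for a stretch with 1 segment, and -0.06, -0.07 and -0.06 for none. With library totals the classes with no stretch and with 1 internal segment moved to 0.02 and 0.0081, against 0.11 for all genes.

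**Figure D3:**
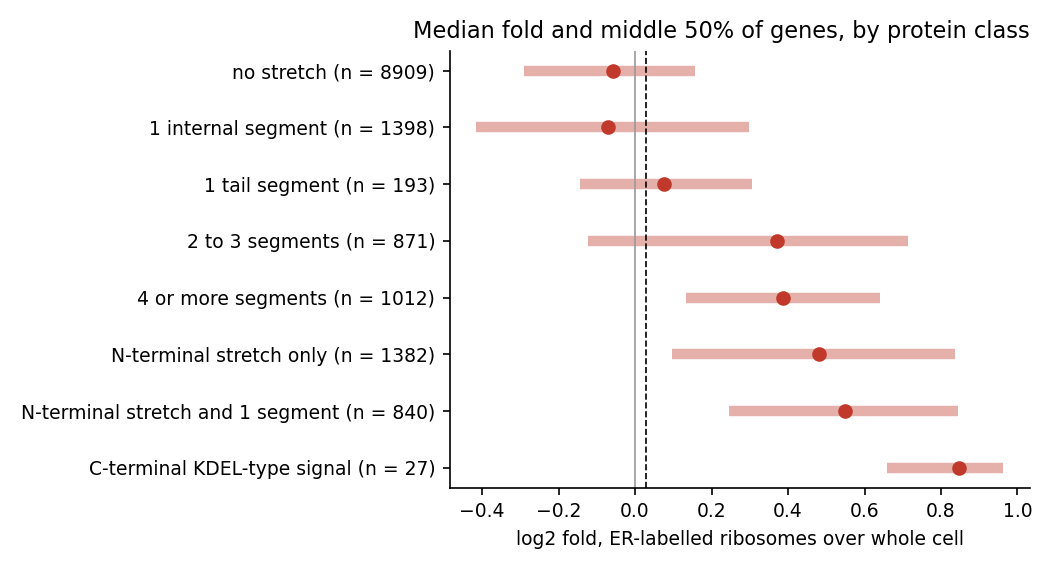
Log2 fold of ER-labelled ribosomes over whole-cell RNA by class of encoded protein; points are medians over the tested genes of a class, bars span the middle 50% of genes and the dashed line is the median of all tested genes (0.03). Medians run from -0.07 for 1 internal segment to 0.85 for proteins with a KDEL-type signal, and the bars of the classes with no stretch, 1 internal segment, 1 tail segment and 2 to 3 segments reach across 0.

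Where the only segment lay in the protein went with the fold. Only the 1398 tested proteins of the class with 1 internal segment were sorted in this way, without those of the tail layout. Those whose segment began within residues 1 to 100 had a median log2 fold of 0.28, with 217 higher and 63 lower of 391. The median was -0.07 for a start at residues 101 to 200 and -0.06 for 201 to 400. It was -0.29 for 401 to 800 (30 higher and 194 lower of 302) and -0.60 beyond residue 800 (9 and 98 of 131). A late first segment needs a long protein, so this order and the one by length below are not independent. Counted over all classes and after residue 40, the median rose from -0.01 for 0 segments through 0.14 for 1 and 0.33 for 2 to 0.48 for 3, and then fell again, to 0.37 for 8 and 0.18 for 13 to 28 segments.

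The fold also went with the length of the coding sequence. Proteins of up to 285 residues had a median log2 fold of 0.22, those of 286 to 460 residues 0.11, of 461 to 730 residues -0.04, of 731 to 1000 residues -0.19, of 1001 to 1997 residues -0.41, and the 383 genes of 2001 residues or more -0.82. All 3 lysates gave this order, and the first gave the steepest one, with -0.99 for the longest proteins against -0.74 and -0.74 in the others. The order by length was present within the classes. From the shortest to the longest of 4 groups of equal size (cut at 285, 460 and 730 residues), the medians were 0.14, 0.00, -0.12 and -0.41 for proteins with no stretch. They were 0.82, 0.68, 0.56 and 0.32 for an N-terminal stretch with 1 segment and 0.73, 0.52, 0.41 and 0.13 for 4 or more segments. In each length group the classes with an N-terminal stretch lay above the class with none. The offset that removes smooth trends with GC content and transcript length over all genes left the difference between genes with and without a stretch or segment at 0.40, against 0.38. Level went with the fold as well. From the lowest to the highest of 4 groups by whole-cell level (cut at 2.82, 19.6 and 61.7 CPM), the medians were 0.46, 0.38, 0.22 and -0.05 for genes with a stretch or segment and 0.15, -0.02, -0.10 and -0.13 for those without, and the whole-cell level is also the denominator of the fold.

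**Figure D4:**
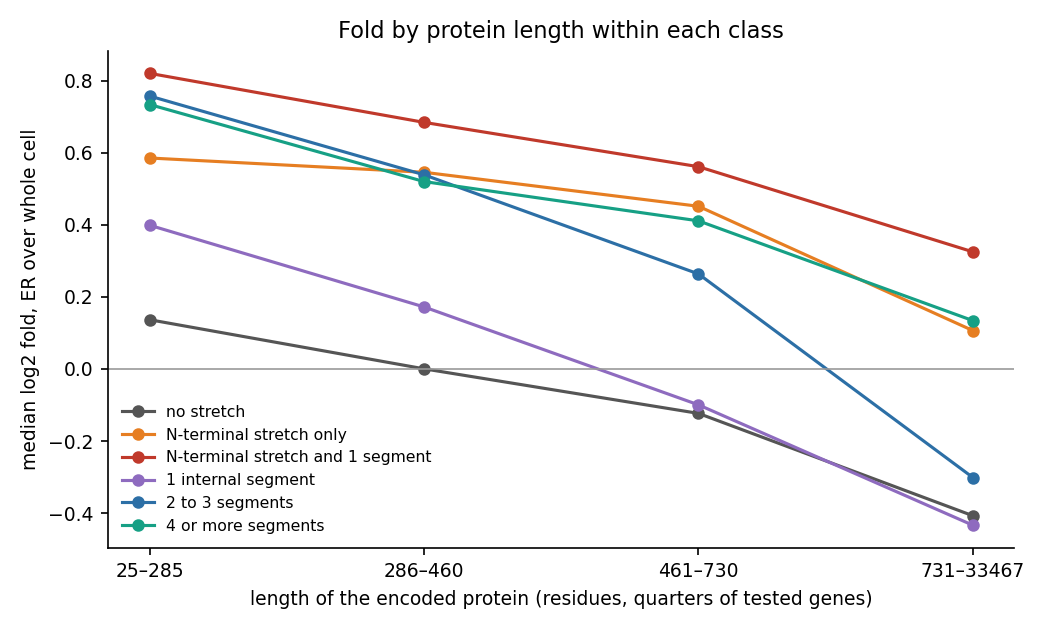
Median log2 fold of ER-labelled ribosomes over whole-cell RNA by length of the encoded protein in residues, in 4 groups of the tested genes; each line is 1 class of encoded protein and each point the median over its tested genes. Every line is lower in the longest group than in the shortest, and the red line, N-terminal stretch and 1 segment, stays on top from 0.82 to 0.32.

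The score is a rule on letters, and its exceptions were of several kinds. Among genes with at least 20 CPM in the higher group and 1 direction in all pairs, the 8 largest rises of genes scored with no stretch included Lefty2 at 161, 157 and 148 CPM against 51.0, 46.7 and 45.3 CPM (log2 fold 1.70, SE 0.05), Lefty1 (1.30) and Nodal (1.12), secreted members of the TGF-beta family that do have signal peptides, of lower hydropathy than the threshold. The other 5 were Btg2 (1.20), an antiproliferative co-factor of mRNA decay, the kinase Plk2 (1.11), the p53 target Phlda3 (1.06), the mitochondrial membrane protein Mpv17l2 (1.04) and the transcription factor Jun (1.03). Btg2 stood at 46.0, 48.1 and 50.5 CPM against 21.6, 21.9 and 19.5 CPM. On the other side, the 8 largest falls by the same rule among proteins scored with 4 or more segments were Mdn1, Birc6, Huwe1 (-1.97), Htt (-1.90), Ubr4 (-1.74), Mycbp2 (-1.72), Heatr1 (-1.64) and Atr (-1.61), very long proteins of the cytosol or nucleus that are not known to span membranes. Huwe1, a ubiquitin ligase, stood at 96.2, 185 and 210.2 CPM against 619, 642 and 657 CPM, with ER-bound replicate 1 again the lowest. Over all 14605 tested genes with a scored protein, 39.0% had a stretch or segment. Read by size of fold, the share was 86.7% of the 15 genes at least 4-fold higher. It was 79.8% of the 599 that were 2- to 4-fold higher and 56.8% of the 4337 higher by less than 2-fold. It was 32.6% of the 5046 that did not pass and 22.1% of the 4322 lower by less than 2-fold. The share was 48.1% of 270 genes among those 2- to 4-fold lower and 81.2% of the 16 that were at least 4-fold lower.

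Genes of the protein entry machinery were mostly higher themselves: 49 of 59 tested members of the SRP, translocon and membrane insertion list passed the test above whole-cell RNA and 4 below, with a median of 0.52 (29.8% and 29.1% of all genes). Ddost, a subunit of the oligosaccharyltransferase that puts glycans on nascent chains, stood at 339, 308 and 309 CPM against 144, 145 and 149.6 CPM (log2 fold 1.12), and its partner Dad1 at 142, 135 and 139 CPM against 64.0, 61.8 and 66.6 CPM (1.11). The ribophorins Rpn1 and Rpn2 followed with 0.77 and 0.73. The catalytic subunits of the same enzyme, Stt3a (-0.01, edgeR adjusted p = 0.94) and Stt3b (0.08, adjusted p = 0.081), did not pass. Sec61a1, the pore of the channel, stood at 0.66, and the SRP receptor subunits Srpr and Srprb at 0.47 and 0.64. The SRP itself is a cytosolic particle: Srp14 (0.33) and Srp9 (0.11) were higher, Srp68 (-0.26) and Srp54a (-0.25) lower, and Srp19 (0.03) and Srp72 (-0.04) did not pass. In the ER membrane complex, the membrane-spanning Emc7, Emc4 and Emc10 stood at 1.04, 0.97 and 0.96 and the soluble Emc2 at -0.11. Bag6, the cytosolic chaperone that hands over tail-anchored proteins, was the lowest of the list at -0.50.

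All 41 tested ER lumen chaperones and folding enzymes were higher, with a median of 0.86. Creld2, a stress-induced disulfide isomerase, stood at 135, 125 and 129 CPM against 55.3, 58.2 and 57.9 CPM (log2 fold 1.18). Fkbp2, a prolyl isomerase, stood at 32.0, 22.9 and 26.3 CPM against 12.1, 12.5 and 11.0 CPM (1.19, SE 0.10). The lowest was Uggt1, the folding sensor that reglucosylates misfolded glycoproteins, at 134, 136 and 139.6 CPM against 119, 116 and 119 CPM (0.21, SE 0.03), still without overlap, followed by the oxidase Ero1l at 0.35. The list thus spanned from 0.21 to 1.19 without a member at or below 0.

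Proteins that anchor ribosomes to the ER or shape it split sharply: 21 of 29 were higher and 5 lower, with a median of 0.71. The receptor for escaped ER residents Kdelr3 stood at 62.4, 59.7 and 55.9 CPM against 29.0, 29.0 and 26.2 CPM (log2 fold 1.08), and the sorting receptor Bcap31 at 1.00. The membrane-bound lectin calnexin, Canx, stood at 0.78. The 2 proteins of the list best known as ER receptors of ribosomes and kinesin, both with a signal anchor at the N-terminus, were its lowest. Ktn1, kinectin, whose anchor is shown above, stood at 71.5, 77.7 and 88.8 CPM against 211, 208 and 217 CPM (log2 fold -1.42, SE 0.06). Rrbp1, p180, stood at 68.2, 75.5 and 85.8 CPM against 193, 182 and 189 CPM (-1.298, SE 0.06). By the group means these mRNAs stood on ER-labelled ribosomes at 37.4% and 40.7% of their whole-cell level, and Ktn1 was still low, at -0.99, with the GC and length offset. Zw10, a tethering factor, followed with -0.83, then Atl3, an ER-fusing GTPase, with -0.37 and Rtn4, a tubule-shaping reticulon, with -0.21.

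Among sterol and lipid enzymes of the ER, 53 of 65 were higher and 9 lower, with a median of 0.46. Hacd2, a membrane enzyme of fatty acid elongation, stood at 105, 101 and 107 CPM against 48.1, 46.0 and 49.0 CPM (log2 fold 1.13), and Tecr, of the same cycle, at 0.98. The lower members included enzymes that are soluble in the cytosol and were listed for their pathway: fatty acid synthase, Fasn, at 243, 288 and 307 CPM against 578, 589 and 628 CPM (-1.10, SE 0.07), the ATP-citrate lyase Acly (-0.44), and Hmgcs1 (-0.41), Mvd (-0.33) and Idi1 (-0.30) of the mevalonate route. Lss, the membrane-associated lanosterol synthase, was lower too, at -0.56.

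Among cargo that leaves the cell, small ligands were high and several very large matrix proteins low. Of 48 tested secreted ligands and inhibitors, 40 were higher and 1 lower, with a median of 0.74, and Vegfa (-0.02, edgeR adjusted p = 0.74) was among those that did not pass. Of 46 extracellular matrix genes, 21 were higher and 9 lower, with a median of 0.22. Sparc, a short matricellular protein, stood at 413, 391.9 and 402 CPM against 185, 184 and 189 CPM (log2 fold 1.11). Lama1, a laminin chain of 3083 residues, and Ltbp1, a latent TGF-beta binding protein of 1341 residues, each start with an N-terminal stretch and stood at -0.97 and -1.18. Ltbp1 was at 6.25, 5.41 and 6.45 CPM against 14.2, 13.8 and 13.1 CPM. Lama5 (-0.68), Agrn (-0.45) and Hspg2 (-0.42), large basement membrane proteins, were lower as well, while fibronectin, Fn1, with 2477 residues, was higher at 0.31.

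GPI-anchored surface proteins were higher in 40 of 44 cases and lower in 0, with a median of 0.93, and four-pass tetraspanins, claudins and relatives in 42 of 43, with a median of 0.88. The exception among the latter was Cmtm4, which stood at 75.2, 74.98 and 79.7 CPM against 111, 110.0 and 111 CPM (log2 fold -0.53, SE 0.04). Single-pass receptors and adhesion proteins were higher in 64 of 87 cases and lower in 8 (median 0.39). Bsg, basigin, stood at 706, 624 and 628 CPM against 287, 285 and 292 CPM (1.18). The lipoprotein receptors Lrp1 and Lrp2, of 4545 and 4660 residues, stood at -0.76 and -1.32. Lrp2 was at 17.1, 24.97 and 28.7 CPM against 55.2, 58.4 and 62.9 CPM, again with ER-bound replicate 1 lowest. Multi-pass carriers, pumps and channels of the surface were more mixed, with 34 of 65 higher and 9 lower (median 0.20), from the connexin Gjb5 (0.97) to the cation-chloride cotransporter Slc12a2 (-0.84) and the myo-inositol carrier Slc5a3 (-0.80).

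Further along the pathway, 59 of 62 lysosomal hydrolases and membrane proteins were higher and 0 lower, with a median of 0.84. Ctsd, cathepsin D, stood at 226, 218 and 220.2 CPM against 91.2, 90.0 and 95.4 CPM (log2 fold 1.26). The V-ATPase, the lysosomal proton pump, joins both kinds of subunit in 1 complex. Its membrane subunits Atp6v0c and Atp6v0b stood at 1.24 and 1.15, and of its 8 cytosolic subunits 3 were higher and 2 lower, with a median of 0.06 and Atp6v1a at -0.36. Type II Golgi enzymes were higher in 61 of 78 cases and lower in 3 (median 0.46). Fut9, a fucosyltransferase, stood at 14.5, 13.7 and 13.3 CPM against 22.7, 20.4 and 20.5 CPM (-0.61), a direction that turned to 0.52 with the GC and length offset. The coats that carry this traffic are assembled from the cytosol, and 31 of 44 of their genes were lower and 12 higher (median -0.31). Sec16a, a scaffold of ER exit sites, stood at 39.3, 50.6 and 49.1 CPM against 124, 123 and 126 CPM (-1.43), while the small GTPases of the same list were higher, with Sar1b at 0.96, Arf5 at 0.75, Arf1 at 0.58, Sar1a at 0.56 and Arf4 at 0.51. Sar1b stood at 77.9, 75.6 and 71.7 CPM against 38.6, 39.1 and 38.2 CPM.

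**Figure D5:**
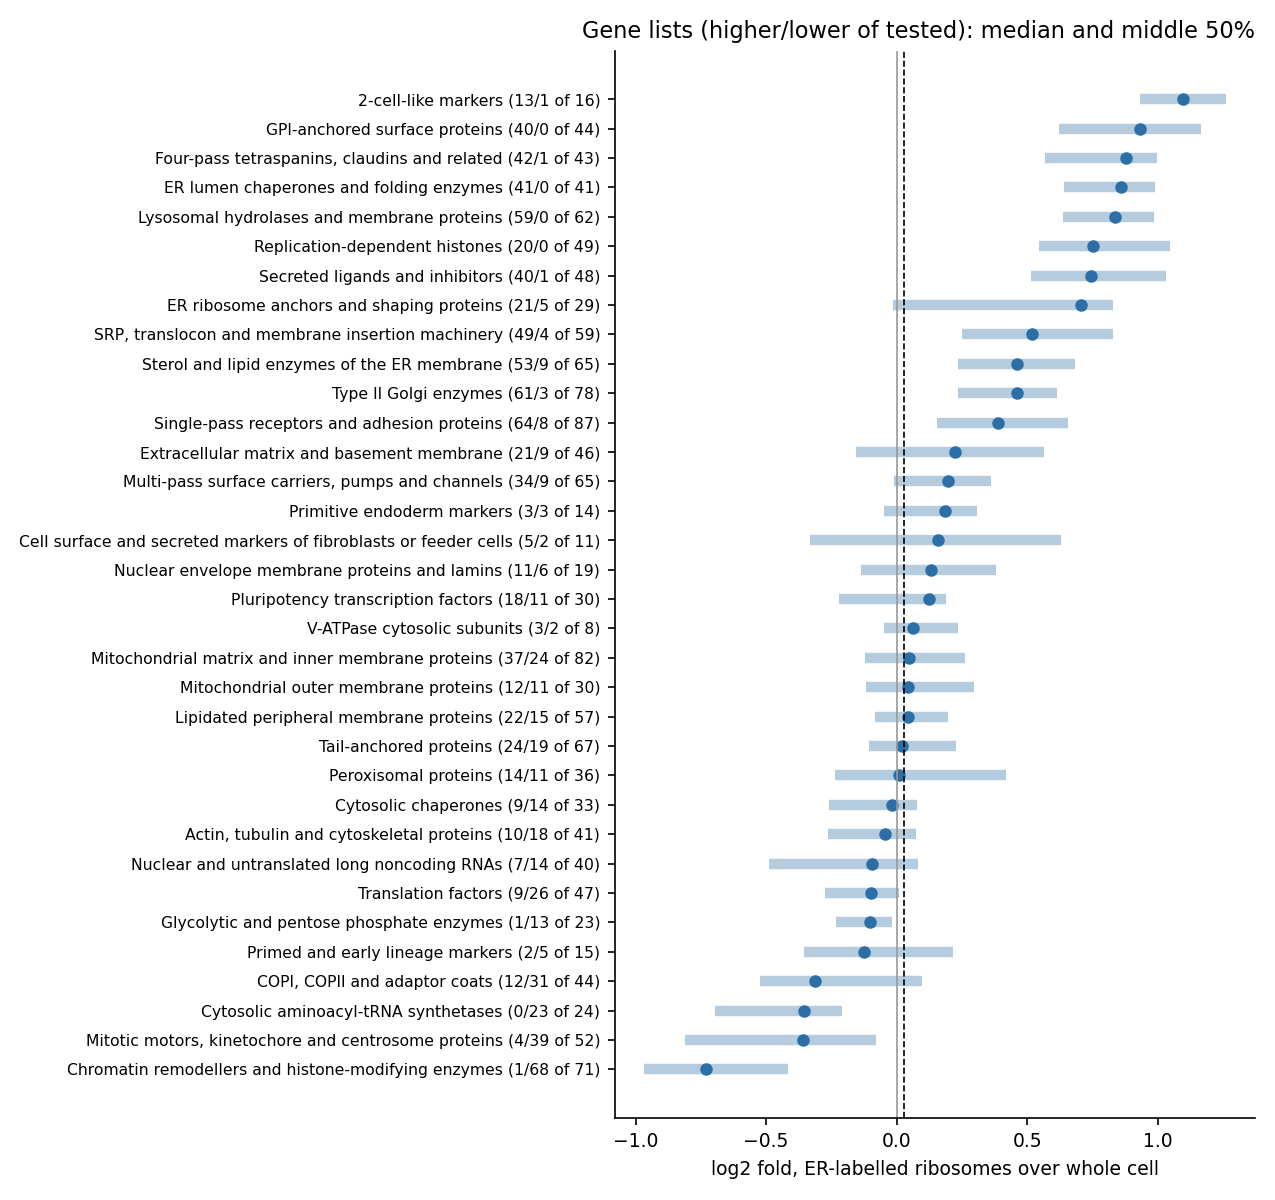
Log2 fold of ER-labelled ribosomes over whole-cell RNA for each gene list; points are the medians of the tested members, bars span the middle 50% of them and the dashed line is the median of all tested genes (0.03). Lists of secreted, surface, lysosomal and ER proteins lie to the right, from 0.20 to 0.93, with the histone list at 0.75 and the 2-cell-like list above all at 1.10, and chromatin, mitotic, coat and aminoacyl-tRNA synthetase lists to the left, from -0.73 to -0.31.

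Lists of proteins that reach membranes after their synthesis had medians close to that of all tested genes (0.03). Of 67 genes listed as tail-anchored, 24 were higher (35.8%) and 19 lower (28.4%), beside 29.8% and 29.1% of all tested genes. Their median of 0.02 changed sign under 2 alternatives. The 3 highest, Tmco1 (0.90), Tomm20 (0.72) and Caml (0.71), are not tail-anchored in the strict sense, since Tmco1 and Caml have several spans and Tomm20 its anchor at the N-terminus. The Sec61 subunits Sec61b and Sec61g stood at 0.27 and 0.23, the apoptosis effector Bax at 0.66, and the Golgi syntaxin Stx16 at -0.67. Lipidated proteins of the inner membrane face were higher in 22 of 57 cases (38.6%) and lower in 15 (26.3%), with a median of 0.04. They ran from the growth cone protein Basp1 (0.84) and the kinase Lyn (0.79) to Rab8b (-0.72).

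The nuclear envelope is continuous with the ER. Of 19 listed genes 11 were higher (57.9%) and 6 lower (31.6%), beside 29.8% and 29.1% of all tested genes. Their median was 0.13, with membrane proteins at the top. Tmem43 stood at 37.7, 38.2 and 39.6 CPM against 16.9, 16.5 and 15.2 CPM (log2 fold 1.25), and Nrm at 0.82. At the other end stood Lmnb2 (-0.68) and Lmnb1 (-0.34), lamins made in the cytosol, with Pom121, a membrane nucleoporin, between them at -0.39.

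Among other organelles, transcripts of the mitochondrial chromosome, translated inside mitochondria by ribosomes without Rpl31, took 2.08% of whole-cell reads and 0.0281% of reads on ER-labelled ribosomes. All 13 mitochondrial mRNAs were lower, with a median log2 fold of -6.90, and mt-Co1 fell from 8336, 8544 and 7816 CPM to 127, 135 and 138 CPM. Nuclear-encoded proteins of the matrix and inner membrane were mixed, with 37 of 82 higher and 24 lower (median 0.05, or -0.13 with the GC and length offset). Its highest members were the respiratory chain subunits Ndufb5, at 186, 165 and 166 CPM against 90.4, 89.7 and 92.6 CPM (0.92), and Cox4i1 (0.91), Ndufb8 (0.77) and Ndufa4 (0.73). All 4 are short single-span proteins of the inner membrane, and the soluble matrix-facing Sdha (-0.58) and Ogdh (-0.57) were the lowest. Outer membrane proteins were higher in 12 of 30 cases and lower in 11 (median 0.05), with the import pore Tomm40 at 0.79 and the fusion GTPase Mfn2 at -0.59. Peroxisomal genes were higher in 14 of 36 cases and lower in 11 (median 0.01). Over all tested genes the shares were 29.8% higher and 29.1% lower. Among peroxisomal genes with at least 5 CPM, the highest was Pxmp4 (0.94), scored with no stretch. The lowest were Agps (-0.64), also with no stretch, and Far1 (-0.57), scored with 1 tail segment. The membrane peroxins Pex16, Pex2, Pex10 and Pex3 stood at 0.68, 0.66, 0.65 and 0.55. The soluble ATPase Pex6 stood at -0.49 and the import receptor Pex5 at -0.27.

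The lists of cytosolic functions given next had medians below 0 with TMM scaling. Of 24 cytosolic aminoacyl-tRNA synthetase genes, 23 were lower and 0 higher, with a median of -0.35. Mars, the methionyl enzyme, stood at 107, 109 and 112 CPM against 347, 350.2 and 358 CPM (log2 fold -1.69, SE 0.03), and Eprs, the glutamyl-prolyl enzyme, at 300.4, 309.5 and 317 CPM against 719.7, 706 and 737 CPM (-1.22). Their replicates differed by far less than the fractions. Among the synthetases of the same multi-enzyme complex, Qars (-0.85), Iars (-0.81), Rars (-0.72) and Lars (-0.69) were further down than Kars (-0.19) and Dars (-0.21). Translation factors were lower in 26 of 47 cases and higher in 9 (median -0.10, or -0.20 with the GC and length offset), led by Eif5b, the subunit-joining GTPase, at 101, 103 and 119.9 CPM against 337, 310.1 and 302 CPM (-1.55). Glycolytic and pentose phosphate enzymes were lower in 13 of 23 cases and higher in 1 (median -0.10, or -0.28 with the offset), beside 29.1% lower and 29.8% higher among all genes. Cytosolic chaperones were lower in 14 of 33 and higher in 9 (-0.02), and cytoskeletal genes lower in 18 of 41 and higher in 10 (-0.05). Both medians turned with library totals, to 0.06 and 0.03, and stood at -0.17 and -0.23 with the offset.

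Genes of chromatin proteins were mostly lower. Of 71 chromatin remodellers and histone-modifying enzymes, 68 were lower and 1, Smarcb1 (0.19), higher, with a median of -0.73 (-0.47 with the GC and length offset) and 17 at least 2-fold lower. Chd8, a chromodomain helicase, stood at 42.4, 47.8 and 50.8 CPM against 157, 159 and 168 CPM (log2 fold -1.78), and Ep400, an ATPase of histone exchange, at -1.603. Mitotic motors, kinetochore and centrosome genes were lower in 39 of 52 cases and higher in 4 (median -0.36), with the kinetochore scaffold Knl1 at 19.7, 21.1 and 21.9 CPM against 85.7, 79.6 and 86.1 CPM (-2.004) and the centrosomal anchor Akap9 at -1.87. Both lists hold many very long proteins. Pluripotency transcription factors, most of them short, were higher in 18 of 30 cases and lower in 11 (median 0.13, or -0.06 with the GC and length offset), from Tbx3 (0.50) to Sall1 (-0.49).

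The largest falls among long noncoding RNAs included ones that are known to stay in the nucleus. Malat1, a nuclear-speckle RNA, stood at 74.7, 97.9 and 143 CPM against 375, 379.6 and 293 CPM (log2 fold -1.73, SE 0.20), and Rian, an imprinted noncoding RNA, at 39.5, 45.1 and 49.9 CPM against 169, 175 and 175 CPM (-1.95). The paraspeckle RNA Neat1 stood at -1.05. Meg3, from the same imprinted region as Rian, went the other way with wide replicates, at 67.0, 102 and 109.8 CPM against 64.4, 66.4 and 67.7 CPM (0.49, SE 0.17, edgeR adjusted p = 0.018), and it did not pass without ER-bound replicate 3 (0.33, adjusted p = 0.097), without ER-bound replicate 2 (0.40, 0.076) or without whole-cell replicate 1 (0.45, 0.060). Of 40 listed long noncoding RNAs, 14 were lower and 7 higher (median -0.10). By annotated biotype, 23 of 35 sense intronic transcripts were lower and 0 higher (median -0.92). Of 25 snoRNA genes 19 were lower and 0 higher (-1.27). Of the 248 transcripts marked as still to be tested experimentally, 134 were lower and 9 higher (-0.79). Larger noncoding biotypes had medians nearer to that of all tested genes (0.03). Of 543 lincRNAs 108 were lower and 67 higher (-0.03), and of 428 antisense transcripts 42 and 49 (0.03). Of 224 processed transcripts 41 were lower and 23 higher (-0.02). Among all tested genes 29.1% were lower and 29.8% higher. Reads of intronic RNAs cannot be told apart from those of a host on the same strand, whether or not strand was used in counting. Reads of genes that overlap on opposite strands cannot be told apart where strand was not used. The sources used here do not state whether it was.

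A pair of lists with mostly low counts were also high. Of 16 tested 2-cell-like markers, 13 were higher and 1, the abundant Eif1a (-0.08), lower (median 1.10). A smaller set of 8 such markers, without Eif1a, summed to 21.2 to 25.8 CPM on ER-labelled ribosomes against 10.4 to 11.7 CPM in whole-cell RNA. These families have near-identical copies, and reads with multiple alignments were left out of the gene counts. Replication-dependent histone genes, whose mRNAs lack a poly(A) tail, were higher in 20 of 49 cases and lower in 0 (median 0.75), all at low counts in these poly(A)-selected libraries. The median was 0.29 without ER-bound replicate 3 and 1.01 without ER-bound replicate 2.

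The same comparison in the cells given Lsg1 siRNA shares no library with this one, although both take their spread from 1 fit. Of the 692 genes at least 2-fold higher in scramble cells, 678 had the same sign there and 607 also passed the test, with medians of 1.19 and 1.16. Of the 568 at least 2-fold lower, 563 had the same sign and 511 passed, with medians of -1.41 and -1.34. The difference between both cell populations passed the test for 4 genes (0.0226%), Lsg1 among them. The difference did not pass for Ktn1 (edgeR adjusted p = 1.00) or Rrbp1 (adjusted p = 0.994). The class medians were 0.52 in Lsg1 siRNA cells for an N-terminal stretch only, against 0.48, and -0.07 for no stretch, against -0.06. In the same order they were 0.63 and 0.55 for a stretch with 1 segment and 0.48 and 0.39 for 4 or more segments. They were 0.41 and 0.37 for 2 to 3 segments, 0.05 and 0.08 for 1 tail segment, and -0.08 and -0.07 for 1 internal segment. Whether class medians differ between the cell populations was not tested.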

How the data were processed

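Polyadenylated RNA of 12 libraries (4 groups of 3) was sequenced as paired reads with a directional kit, per the labels' protocols. The authors deposited raw counts per gene for each library, made with STAR 2.7.9a on GRCm39 and HTSeq 0.11.2, per the submitters' processing notes; neither the annotation release nor the strand setting is given there. Replicates are labelled as biological. The summary lines of the 6 scramble libraries (no feature 2.69% to 5.11%, multiple alignments 6.20% to 8.11%, ambiguous 0.974% to 1.15%) stayed out of library sizes and tests. SDs cover both counting error and differences between cultures.

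Counts were scaled by TMM, filtered with filterByExpr (17702 of 55416 genes left) and tested with edgeR 4.0.16 in R 4.3.3 (quasi-likelihood F-test, all 12 libraries, 1 mean per group, prior count 2, 8 residual degrees of freedom, BCV, the biological coefficient of variation, 4.42%, Benjamini-Hochberg adjustment over all tested genes, threshold 0.05). Log2 folds are ER-bound over whole-cell, with their SE. Same-numbered libraries are pairs because they come from 1 lysate; deviations from the group means correlated by 0.093, 0.0097 and 0.138 in the 3 pairs.

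Names came from GENCODE M21 on GRCm38 by gene ID (52135 IDs, 94.1%, with 99.5% of reads). Proteins were translated from its coding sequences, in place of the RefSeq proteins planned, 1 transcript per gene (annotated principal isoform, then the longest), for 14605 tested genes, and other isoforms were not scored. Members and the 35 gene lists were chosen with earlier results of these data known; 11 of 1548 list symbols had no match. Named genes were the 15 largest rises and falls with at least 20 CPM and 1 direction in all pairs, the 2 highest and 2 lowest members of each list with at least 5 CPM, the 8 most abundant per kilobase, and the 8 largest exceptions to the classes each way under the same 20 CPM minimum; other names were chosen after their values were seen. A few list members are not reported here.

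The test was checked on counts simulated for this comparison over 17368 genes, of which 200 were changed: 94.1% of 1.5-fold, 98.6% of 2-fold and 100% of 4-fold changes were found and 9 unchanged genes were called. With so few genes changed, it cannot check the scaling or the calls where 58.9% of genes differ. Alternatives were library totals, DESeq2 size factors, no filter, a stricter filter (2 CPM in 3 libraries), DESeq2 1.42.0, limma-voom (limma 3.58.1), the 6 scramble libraries alone, a replicate block, a GC and length offset (splines, 5 degrees of freedom), removal of mitochondrial and ribosomal protein genes, hydropathy thresholds of 1.8 and 2.5, and each library left out; leaving out both libraries rich in ENSMUSG00000119584 was chosen after seeing the data. Plots used Python 3.11.15 and matplotlib 3.10.9.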

Additional observations from a re-analysis of the deposited data

Results flagged for a closer look

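For 4 genes the fold of ER-labelled ribosomes over whole-cell RNA differed between scramble cells and cells given Lsg1 siRNA by edgeR's interaction test. Lsg1, the targeted gene, stood at a log2 fold of 0.04 with scramble and -1.18 with Lsg1 siRNA, a difference of 1.22 (adjusted p = 0.00135). Nme4, a mitochondrial nucleoside diphosphate kinase, stood at 0.08 and 0.67, a difference of -0.59 (adjusted p = 0.000448), with 58.2, 50.4 and 52.9 CPM against 50.4, 51.5 and 51.0 CPM in scramble cells. Lage3, a subunit of the KEOPS tRNA-modifying complex, stood at -0.36 and 0.15, a difference of -0.51 (adjusted p = 0.00126). Vamp3, a tail-anchored SNARE of recycling endosomes, stood at -0.13 and -0.52, a difference of 0.39 (adjusted p = 0.0258).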

How the results depend on the processing

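With a replicate block by lysate, 5415 genes were higher and 5249 lower, 702 and 573 of them by at least 2-fold, and the block changed no call of a gene named by the rule. Leaving out each scramble library in turn gave 4660 to 4959 genes higher, 4873 to 5141 lower, 674 to 711 higher and 514 to 673 lower by at least 2-fold, and a difference between the medians of genes with and without a stretch or segment of 0.37 to 0.38 (main value 0.38). That difference was 0.36 without a filter, 0.40 with the GC and length offset and 0.48 at a segment threshold of 1.8. The stricter filter left 385 genes higher and 307 lower by at least 2-fold, as it tests fewer genes.

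Directions of named genes past the threshold, and of medians larger than their spread between pairs, turned as follows, and the cause was not tested. With library totals, the class with no stretch stood at 0.022, the class with 1 internal segment at 0.0081 and Npm1 at 0.00074. The class with 1 internal segment stood at 0.11 at a segment threshold of 1.8 and at 0.011 at an N-terminal threshold of 2.5. With the GC and length offset, the medians of tail-anchored, mitochondrial matrix and inner membrane, and pluripotency genes were -0.024, -0.13 and -0.056. Among named genes it gave Fut9 0.52, Xylt1 0.13, Tkt -0.014, Pgls -0.17, Eif1a 0.0055, Eef1a1 -0.14, Rplp1 -0.11, Rpl8 -0.028, Hsp90ab1 -0.10, Ptma -0.037 and Rps4x -0.11. Medians nearer to 0 turned as well: peroxisomal genes stood at -0.063 with the offset, and between -0.00507 and -0.00407 with DESeq2, its size factors, the 6 scramble libraries only, mitochondrial and ribosomal protein genes left out, or ER-bound replicate 2 left out, cytosolic chaperones and cytoskeletal genes at 0.062 and 0.032 with library totals, and mitochondrial outer membrane genes at -0.0017 without whole-cell replicate 1. The tail-anchored median ranged from -0.0017, without whole-cell replicate 1, to 0.023 over the libraries left out. Among the values of named genes under the alternatives, 2886 kept their direction and their side of the threshold, 27 turned while past the threshold in neither fit, 11 passed newly, 44 no longer passed and 12 turned as calls.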
